A study of Mus musculus with 24 samples.

Results

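The genes described here act in the formation of multiciliated cells: Gmnc, Mcidas, Foxn4, Myb, Hes6 and Foxj1, which regulate transcription, and Deup1, Ccno, Plk4 and Stil, which act in making centrioles. They are a list of 10 genes, drawn up with earlier results of these data known, and the spot that stands for each gene was chosen by its mean log2 signal, the highest over all 24 samples. All 10 were among the 20738 genes with a named spot, and all 10 passed a filter on low signal that kept 16519 genes. The array names Deup1 as Ccdc67, Mcidas as Gm6320 and Gmnc as Gm606. Deup1 had 3 spots and each other gene had 1.

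The samples came from lungs of female C57BL/6 mice, 7 to 8 weeks old, that received a carbon nanomaterial by oropharyngeal aspiration, a delivery of liquid through the throat into the airways. Each mouse received 10 µg per day in 50 µl of phosphate-buffered saline (PBS) on 4 days, and lung tissue was taken 24 h after the last dose. The 6 materials were labelled rCNT, tCNT and SES (3 samples each) and BayTubes, Graphite and fullerene (4 samples each), and the 3 Ctrl samples came from mice given 50 µl of PBS alone. Each sample was RNA of 2 mice pooled, so the p-values below measure the spread between pools and the number of pools limits their precision. The 2 dyes of each of 12 arrays carried different samples, and the arrays lay on 3 slides. Ctrl samples were on slide 1 (1 sample) and slide 2 (2 samples) only, and each slide held 1 rCNT sample. On slide 2 the Ctrl samples were in Cy3 and the rCNT and BayTubes samples in Cy5, so their differences within that slide rest on the dye adjustment. The lung markers Sftpc, of alveolar type 2 cells, and Scgb1a1, of club cells, were at or above the 99.9th percentile of spots in all 24 samples.

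Multiciliated cells line the conducting airways and move mucus with many motile cilia, each of which grows from a basal body, a modified centriole. A progenitor that escapes Notch signalling switches on Gmnc and then Mcidas. These act with E2F4 or E2F5 and their partner DP1 on genes of centriole production, such as Deup1 and Ccno, and on the regulators Myb and Foxj1. Deup1 builds the deuterosome, a platform on which many centrioles form at once with the enzymes and scaffolds of ordinary centriole duplication, and Foxj1 and RFX factors then drive the genes of the motile axoneme.

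The stretches of DNA just before the starts of Deup1, Ccno and Mcidas are printed because Deup1 and Ccno moved together and because Mcidas, a regulator of both, is the next gene to Ccno on chromosome 13. The spot for Mcidas did not move with them, but its specificity was not tested. The stretches are the 250 bases before a RefSeq start in build GRCm38.p6, 5′ to 3′ along the gene. They lie at chr9:15627847-15628096 (minus strand), chr13:112987552-112987801 (plus strand) and chr13:112993618-112993867 (plus strand). Capitals mark letters of the motif that RFX factors bind, GTTGCC on either strand, and in Deup1 its longer form, in which GTTGCC is followed at once by ATGG, 2 letters of any kind and AC.
Deup1: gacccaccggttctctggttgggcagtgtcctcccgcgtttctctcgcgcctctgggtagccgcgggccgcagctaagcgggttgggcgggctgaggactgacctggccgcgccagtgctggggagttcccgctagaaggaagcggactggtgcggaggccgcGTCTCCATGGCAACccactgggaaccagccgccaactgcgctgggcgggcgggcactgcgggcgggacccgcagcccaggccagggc
Ccno: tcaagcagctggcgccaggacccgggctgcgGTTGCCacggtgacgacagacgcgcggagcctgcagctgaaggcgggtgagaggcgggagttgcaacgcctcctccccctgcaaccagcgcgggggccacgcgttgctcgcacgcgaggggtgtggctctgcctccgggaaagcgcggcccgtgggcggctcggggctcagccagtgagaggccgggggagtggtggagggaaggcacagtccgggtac
Mcidas: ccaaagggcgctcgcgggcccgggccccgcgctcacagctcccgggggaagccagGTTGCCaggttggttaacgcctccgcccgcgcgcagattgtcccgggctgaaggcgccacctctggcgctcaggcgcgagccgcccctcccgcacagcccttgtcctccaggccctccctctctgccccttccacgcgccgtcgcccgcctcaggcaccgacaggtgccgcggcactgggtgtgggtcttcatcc
A window of 300 bases around a start was found for 9 of the 10 genes, Foxj1 not being in the table used. Deup1, Gmnc and Hes6 had 2 windows each, for 2 starts, and a gene was counted where either window held the letters. The shares given are of single windows. The Deup1 stretch above belongs to window 1, and its window 2 held no RFX letters. GTTGCC was in the windows of Deup1, Ccno and Mcidas, against 12.5% of 32851 RefSeq windows. The longer form was in window 1 of Deup1 alone, on the strand opposite to the gene, against 0.222% of windows. As printed, its first base lay 87 bases before the start. In Ccno and Mcidas the short form began 219 and 195 bases before the start, on the plus strand. The E2F letters TTTGGCGC, TTTCCCGC and TTTCGCGC were in none of the 9 (1.84% of all windows held 1 of them). The FOX letters GTAAACA were in Myb alone (3.65%). Of the MYB letters, AACGG was in Foxn4, Plk4 and Stil (17.4%) and AACTG in Deup1, Foxn4, Gmnc, Hes6 and Stil (44.8%). Only exact matches to the letters given were counted, so near forms of the RFX, E2F, FOX or MYB motifs could be present. These matches describe the letters of these windows, and binding was not measured.

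Deup1, Ccno, Foxn4 and Myb were higher with rCNT, tCNT and BayTubes than in Ctrl, by between 0.79 and 1.85 on the log2 scale, and all 4 passed the test with each of these 3 materials, with which 21.8%, 0.708% and 3.18% of all genes passed. Foxj1 passed it with rCNT alone, where it rose by 1.10 ± 0.20 (SE). With SES and fullerene none of the 10 passed (0% and 0.26% of all genes did), and with Graphite Ccno alone did, narrowly (1.13%). Changes were estimated with limma over all 16519 genes, with adjustment for dye, so they differ somewhat from differences of plain means, and a gene is said to have risen or fallen where its Benjamini-Hochberg adjusted p was under 0.05. In RNA of whole lung, more cells of a type and more RNA of a gene per cell cannot be told apart.

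**Figure D1:**
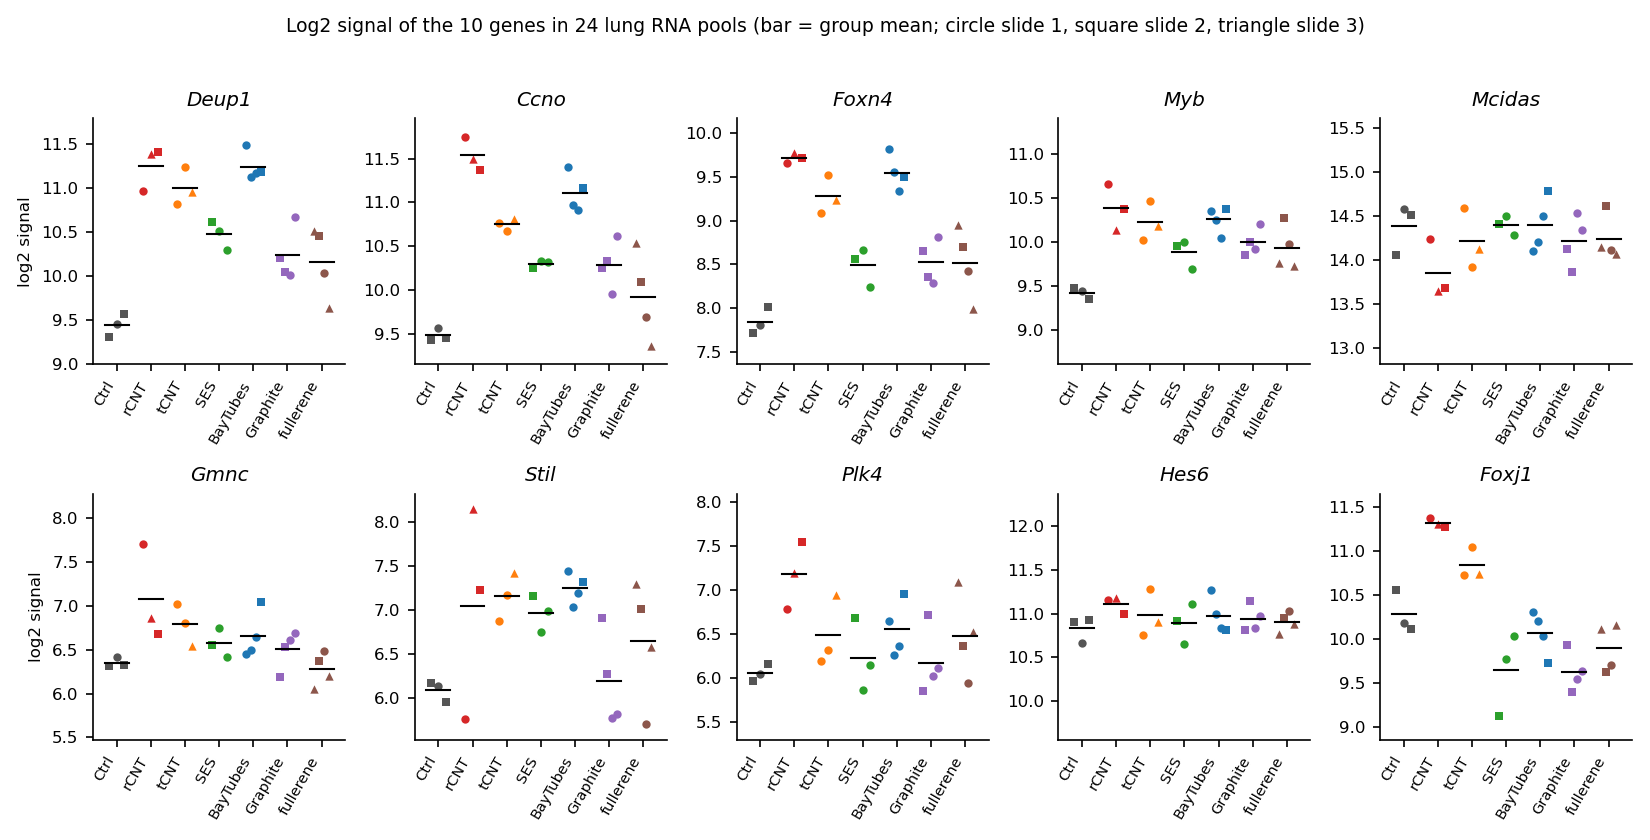
Log2 signal (vertical axis) of each of the 10 genes in all 24 samples, by group (horizontal axis). Points are samples, bars are group means, and the symbol gives the slide. Deup1, Ccno, Foxn4 and Myb have their highest means in rCNT, tCNT and BayTubes, where the Myb samples overlap those of Graphite and fullerene. Foxj1 is high in rCNT and tCNT, and Mcidas is lowest in rCNT, at a mean of 13.86.

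Gmnc, the geminin-like coiled-coil protein at the top of the pathway, had a low signal of 6.31, 6.41 and 6.33 in the Ctrl samples. With rCNT it was 7.70, 6.86 and 6.68, with tCNT 7.02, 6.80 and 6.54, with SES 6.55, 6.74 and 6.42, with BayTubes 6.45, 6.50, 6.64 and 7.04, with Graphite 6.19, 6.53, 6.61 and 6.69, and with fullerene 6.05, 6.37, 6.48 and 6.20. The rCNT, tCNT, SES and BayTubes samples all lay above the Ctrl samples, but by little, and 1 rCNT sample stood well above the other 2. Gmnc rose with rCNT by 0.69 ± 0.21 (adjusted p = 0.0235). Without that sample, rCNT 4, the difference was 0.45 and no longer passed (adjusted p = 0.107). Leaving out Ctrl 2, Ctrl 3 or rCNT 5 also ended the call. Against fullerene, rCNT was higher by 0.75 ± 0.18 (adjusted p = 0.00497).

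Mcidas encodes multicilin, which acts after Gmnc. Its values rest on a single, very bright spot, between the 97.4th and 98.9th percentiles of spots in all 24 samples, whose nearest gene across samples was Snap25 (correlation 0.963), and whether it measures Mcidas RNA alone was not tested. The signal of this spot was 14.06, 14.58 and 14.51 in Ctrl and 14.24, 13.65 and 13.68 with rCNT, 14.59, 13.92 and 14.13 with tCNT and 14.41, 14.50 and 14.29 with SES. In the other groups it was 14.10, 14.21, 14.50 and 14.78 (BayTubes), 14.13, 13.86, 14.53 and 14.34 (Graphite), and 14.15, 14.62, 14.12 and 14.07 (fullerene). Every group overlapped Ctrl. Mcidas fell with rCNT by 0.60 ± 0.16 (adjusted p = 0.011), a call lost without the dye term (-0.47). The difference was -0.34 within slide 1 and -0.96 within slide 2, each with 1 rCNT sample. Against tCNT, SES, BayTubes, Graphite and fullerene the rCNT difference was between -0.36 and -0.60, and passed in all but the comparison with tCNT. Leaving out rCNT 6 ended each of the calls, that against Ctrl included. Gpx8, a further gene of this neighbourhood, did not pass with any material (0.08 ± 0.14 with rCNT), and Cdc20b was not analysed here.

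Foxn4, a forkhead factor that works with Foxj1 in multiciliated cells, had a signal of 7.72, 7.81 and 8.02 in Ctrl. It was 9.65, 9.77 and 9.71 with rCNT, 9.08, 9.52 and 9.23 with tCNT, 9.81, 9.55, 9.33 and 9.49 with BayTubes, 8.56, 8.67 and 8.24 with SES, 8.65, 8.36, 8.29 and 8.81 with Graphite, and 8.95, 8.70, 8.42 and 7.99 with fullerene. Every treated sample but 1 of fullerene was above all Ctrl samples, and the rCNT, tCNT and BayTubes samples were all above every SES, Graphite and fullerene sample. Foxn4 rose 3.45-fold with rCNT (log2 1.79 ± 0.20, adjusted p = 5.08e-06), 3.30-fold with BayTubes (1.72 ± 0.16, adjusted p = 9.67e-06) and 2.71-fold with tCNT (1.44 ± 0.20, adjusted p = 0.00232). Its p-value was the 3rd smallest of the 16519 genes with BayTubes and with tCNT. The differences with SES (0.62 ± 0.19, adjusted p = 0.775), Graphite (0.69 ± 0.18, adjusted p = 0.0555) and fullerene (0.67 ± 0.18, adjusted p = 0.184) did not pass.

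Myb, a transcription factor of early multiciliated differentiation that also acts in blood progenitors and dividing cells, had a signal of 9.47, 9.44 and 9.35 in Ctrl. With rCNT it was 10.66, 10.13 and 10.37, with tCNT 10.02, 10.46 and 10.18, with BayTubes 10.35, 10.25, 10.04 and 10.37, with SES 9.95, 9.99 and 9.69, with Graphite 9.85, 10.00, 9.92 and 10.20, and with fullerene 9.76, 10.27, 9.97 and 9.72. All 21 treated samples were above all Ctrl samples, and the rCNT, tCNT and BayTubes samples overlapped one another. Each of these 3 groups also overlapped the Graphite and fullerene samples, which reached 10.20 and 10.27. Myb rose with rCNT by 0.94 ± 0.15 (adjusted p = 0.000147), with BayTubes by 0.86 ± 0.12 (adjusted p = 0.000448) and with tCNT by 0.79 ± 0.15 (adjusted p = 0.0178). The tCNT call was kept in 1 of 6 fits without 1 sample. With Graphite (0.53 ± 0.13, adjusted p = 0.0535), fullerene (0.52 ± 0.14, adjusted p = 0.16) and SES (0.40 ± 0.14, adjusted p = 0.976) it did not pass. Of 10 tested markers of blood progenitors and thymocytes, 2 rose with rCNT (Gata1 by 1.33 and Flt3 by 0.67) and 2 fell (Gata2 by 0.72 and Kit by 0.46). Of all genes, 12.4% rose and 9.41% fell with rCNT. None of the 10 markers passed with BayTubes or tCNT. The mean level of these 10 markers ranged from 8.63 to 8.83 in Ctrl and from 8.73 to 9.10 with rCNT. Of the thymocyte genes, Rag1 was above the 40th percentile of spots in 0 of 24 samples, Rag2 in 1, Ptcra in 3 and Dntt in 24. Of 11 leukocyte markers, 1 rose (Cd3d by 0.50) and 1 fell (Itgam by 0.70) with rCNT, a share close to the 21.8% of all genes that passed. The mean level of the 11 ran from 10.06 to 10.36 in Ctrl and from 10.23 to 10.47 with rCNT. The part of these cells in the Myb signal was not tested.

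Hes6, a Hes family member that opposes the Notch effector Hes1, moved little. Its signal ran from 10.66 to 10.93 in Ctrl and from 11.00 to 11.18 with rCNT, so that the 2 groups did not overlap, and from 10.65 to 11.28 over the other materials, all of which overlapped Ctrl. The rise with rCNT was 0.34 ± 0.11 (adjusted p = 0.0359), with 0.46 within slide 1 and 0.41 within slide 2, each with 1 rCNT sample. The call was kept in 2 of 6 fits without 1 sample.

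Foxj1, the regulator of the motile cilium programme, parted from the others by material. Its signal was 10.56, 10.18 and 10.11 in Ctrl, 11.38, 11.31 and 11.28 with rCNT, and 10.73, 11.05 and 10.74 with tCNT. It was 10.31, 10.20, 10.03 and 9.73 with BayTubes, 9.13, 9.77 and 10.03 with SES, 9.93, 9.40, 9.55 and 9.64 with Graphite, and 10.11, 9.62, 9.70 and 10.16 with fullerene. All rCNT samples and all tCNT samples were above every Ctrl sample, the BayTubes and fullerene samples overlapped Ctrl, and the SES and Graphite samples were all below it. Foxj1 rose 2.14-fold with rCNT (log2 1.10 ± 0.20, adjusted p = 0.000461). The difference was 1.21 within slide 1 and, after the dye adjustment, 0.50 within slide 2, each with 1 rCNT sample. With tCNT the difference was 0.53 ± 0.19 (adjusted p = 0.336), with BayTubes -0.20 ± 0.16 (adjusted p = 0.68), with Graphite -0.62 ± 0.17 (adjusted p = 0.0719), with SES -0.61 ± 0.19 (adjusted p = 0.775) and with fullerene -0.29 ± 0.18 (adjusted p = 0.53), none of which passed. The Graphite difference was -0.73 within slide 1 and -0.93 within slide 2.

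Deup1, the deuterosome protein and a paralogue of the centriole protein Cep63, had a signal of 9.31, 9.46 and 9.57 in Ctrl. With rCNT it was 10.97, 11.39 and 11.42, with tCNT 10.82, 11.24 and 10.96, with BayTubes 11.49, 11.13, 11.17 and 11.19, with SES 10.62, 10.51 and 10.30, with Graphite 10.21, 10.05, 10.02 and 10.68, and with fullerene 10.51, 10.46, 10.04 and 9.64. All 21 treated samples were above all Ctrl samples, and the rCNT, tCNT and BayTubes samples were above every sample of the other 3 materials. Deup1 rose 3.46-fold with BayTubes (log2 1.79 ± 0.18, adjusted p = 1.56e-05), 3.26-fold with rCNT (1.70 ± 0.22, adjusted p = 1.79e-05) and 2.93-fold with tCNT (1.55 ± 0.22, adjusted p = 0.00232). With SES (0.94 ± 0.21, adjusted p = 0.281), Graphite (0.79 ± 0.19, adjusted p = 0.0505) and fullerene (0.67 ± 0.20, adjusted p = 0.227) it did not pass. Within slide 1 the rCNT and BayTubes differences were 1.32 and 1.60, and within slide 2 they were 1.77 and 1.49. Its other 2 spots gave smaller differences in the same direction, 1.43 and 1.26 with rCNT, 1.36 and 0.99 with BayTubes, and 1.16 and 0.99 with tCNT.

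**Figure D2:**
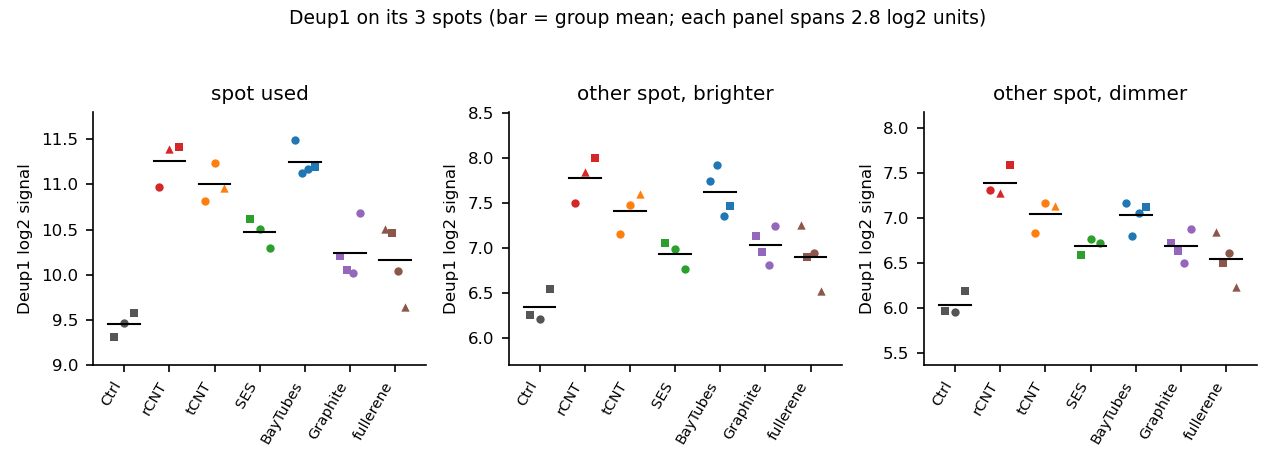
Log2 signal of Deup1 (vertical axis) on each of its 3 spots, by group (horizontal axis). Points are samples, bars are group means, and each panel spans the same number of log2 units. All rCNT, tCNT and BayTubes samples lie above all Ctrl samples on every spot, and the rCNT difference is 1.71, 1.43 and 1.26 when each spot was fitted on its own.

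Ccno, a cyclin-like protein needed for centriole amplification, had a signal of 9.44, 9.57 and 9.46 in Ctrl. It was 11.75, 11.49 and 11.37 with rCNT, 10.77, 10.68 and 10.81 with tCNT, 11.40, 10.97, 10.91 and 11.17 with BayTubes, 10.26, 10.33 and 10.32 with SES, 10.26, 10.33, 9.96 and 10.62 with Graphite, and 10.54, 10.10, 9.70 and 9.37 with fullerene. The fullerene samples were spread from below the lowest Ctrl sample to near the tCNT samples, and all others were above Ctrl. Ccno rose 3.61-fold with rCNT (log2 1.85 ± 0.21, adjusted p = 5.07e-06), 3.00-fold with BayTubes (1.59 ± 0.17, adjusted p = 2.95e-05) and 2.35-fold with tCNT (1.24 ± 0.21, adjusted p = 0.00842). The tCNT call was kept in 3 of 6 fits without 1 sample. Ccno also rose with Graphite, 1.69-fold (0.76 ± 0.18, adjusted p = 0.0476), a call that was lost in 6 of 7 fits that left out 1 sample. With SES (0.81 ± 0.20, adjusted p = 0.44) and fullerene (0.42 ± 0.19, adjusted p = 0.387) it did not pass.

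Plk4, the kinase that starts each new centriole, had a signal of 5.97, 6.05 and 6.16 in Ctrl, close to the level of the filter on low signal, 5.69 to 5.75. It was 6.79, 7.20 and 7.55 with rCNT, 6.20, 6.32 and 6.95 with tCNT, and 6.65, 6.26, 6.36 and 6.96 with BayTubes. These samples were all above Ctrl, and those with SES, Graphite and fullerene, from 5.85 to 7.09, overlapped it. Plk4 rose with rCNT by 0.92 ± 0.28 (adjusted p = 0.022). The difference was 0.66 within slide 1 and 2.32 within slide 2, each with 1 rCNT sample. The slide 2 value includes the dye adjustment, as rCNT 6 (7.55) and Ctrl 1 and 3 (5.97 and 6.16) were in different dyes. Leaving out any of the Ctrl samples or rCNT 6 ended the call, at an adjusted p between 0.0551 and 0.0861. With BayTubes the difference was 0.49 ± 0.23 (adjusted p = 0.331).

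Stil, the partner through which Plk4 recruits the centriole scaffold, had a signal of 6.17, 6.14 and 5.95 in Ctrl and 5.76, 8.15 and 7.23 with rCNT. With BayTubes it was 7.44, 7.04, 7.19 and 7.32, with tCNT 6.88, 7.17 and 7.42, with SES 7.16, 6.75 and 6.99, with Graphite 6.91, 6.27, 5.77 and 5.82, and with fullerene 7.30, 7.01, 5.70 and 6.58. The BayTubes, tCNT and SES samples were all above Ctrl, while the rCNT samples spread from below Ctrl to the highest value of all. Stil rose with BayTubes by 1.23 ± 0.32 (adjusted p = 0.0401), a call that none of the 7 fits without 1 sample kept. With rCNT (0.99 ± 0.39, adjusted p = 0.0769) and tCNT (1.11 ± 0.39, adjusted p = 0.29) it did not pass. The rCNT difference was -0.46 within slide 1 and 0.57 within slide 2.

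**Figure D3:**
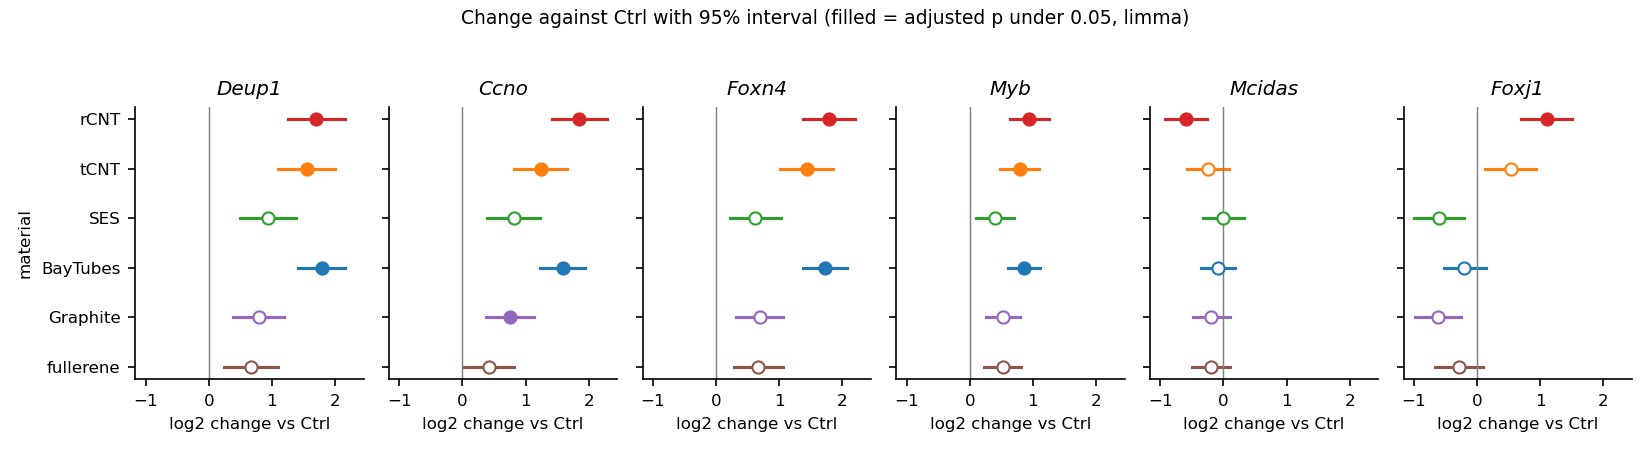
Log2 change against Ctrl (horizontal axis) of Deup1, Ccno, Foxn4, Myb, Mcidas and Foxj1 with each material (vertical axis). Points are limma estimates, lines are 95% intervals, and filled points have an adjusted p under 0.05. Foxn4 is at 1.79 with rCNT and 1.72 with BayTubes, whereas Foxj1 is at 1.10 and -0.20.

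Counted over the 10 genes, 8 rose and 1 fell with rCNT, where 21.8% of all genes passed (12.4% higher and 9.41% lower), and their median difference was 0.97 against -0.015 for all genes. With BayTubes 5 rose, where 3.18% of all genes passed (2.16% higher), and the median was 0.68 against -0.006. With tCNT 4 rose, where 0.708% of all genes passed (0.684% higher), and the median was 0.66 against 0.001. This last count was 0 without tCNT 8, 2 without tCNT 9 and 2 without Ctrl 2. With Graphite 1 rose, where 1.13% of all genes passed (0.545% higher), and the median was 0.23 against 0.024.

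No gene of the 10 passed with SES (median 0.31), where limma called 0% of all genes and 747 had an unadjusted p under 0.05. None passed with fullerene (median 0.36), where 0.26% of all genes were called and 1993 had an unadjusted p under 0.05, although Foxn4 was called once fullerene 24 was left out. Samples that did not overlap Ctrl give another count. All samples of the material were above all Ctrl samples for 8 of the 10 genes with rCNT (18.9% of all genes), 8 with tCNT (8.94%), 7 with BayTubes (6.54%), 6 with SES (7.25%), 4 with Graphite (9.41%) and 2 with fullerene (11.2%). They were all below for 1 gene, Foxj1, with SES (5.97%) and with Graphite (4.53%). The 6 comparisons share the 3 Ctrl samples, and the genes were listed with earlier results known, so these counts are descriptions of the list. A test of any difference among the 7 groups called 6 of the 10, Deup1, Ccno, Foxn4, Myb, Gmnc and Foxj1, where it called 17.8% of all genes.

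Direct comparisons between materials, which use no Ctrl difference, showed where rCNT stood apart. Against BayTubes, 2 of the 10 genes passed, where 13.1% of all genes did (8% higher and 5.05% lower). Foxj1 was higher with rCNT by 1.30 ± 0.18 (adjusted p = 0.000122), with all rCNT samples above all BayTubes samples (12.3% of all genes), and Mcidas was lower by 0.52 ± 0.15 (adjusted p = 0.0273). The Mcidas call was lost without rCNT 6 and without BayTubes 18, 19 or 20, and Foxj1 was called in all 7 fits without 1 sample. For the genes that rose with both materials the 95% interval of the difference, rCNT minus BayTubes, ran from -0.51 to 0.34 for Deup1, from -0.14 to 0.67 for Ccno, from -0.33 to 0.45 for Foxn4 and from -0.21 to 0.37 for Myb. These intervals leave room for differences of either sign in all 4.

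Against tCNT none of the 10 passed, where 8.84% of all genes did and 3949 had an unadjusted p under 0.05. The smallest adjusted p-values were those of Ccno (0.62 ± 0.20 higher with rCNT, adjusted p = 0.0635) and Foxj1 (0.57 ± 0.19 higher, adjusted p = 0.0686), and for both, and for Foxn4, all rCNT samples were above all tCNT samples (13.6% of all genes). For Deup1 the interval of the difference ran from -0.29 to 0.60. The tCNT samples also lay above all BayTubes samples for Foxj1, as they did for 2.68% of all genes, a difference that was not tested.

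Against SES 7 of the 10 passed (17.1% of all genes), 6 higher with rCNT (10%) and Mcidas lower (7.02%). Against Graphite 8 passed (26.1%), 7 higher (12.8%) and Mcidas lower (13.3%), and against fullerene 7 passed (23.1%), 6 higher (12%) and Mcidas lower (11.1%). The SES count was 3 without SES 11. The Mcidas calls were kept in 4 of 6 (SES), 4 of 7 (Graphite) and 2 of 7 (fullerene) fits without 1 sample. Foxj1 showed the largest of these differences of the 10 genes with SES and Graphite, at 1.70 ± 0.19 (adjusted p = 1.2e-05) and 1.72 ± 0.16 (adjusted p = 5.59e-07), and was higher by 1.38 ± 0.17 than with fullerene (adjusted p = 1.11e-05). Ccno was higher with rCNT than with SES, Graphite and fullerene by 1.04, 1.10 and 1.43, and Foxn4 by 1.16, 1.09 and 1.11. Deup1 was higher by 0.76, 0.92 and 1.03, of which the call against SES was kept in 2 of 6 such fits.

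The order of the group means was nearly the same for Deup1, Ccno, Foxn4 and Myb: Ctrl lowest, then fullerene, Graphite and SES in varying order, then tCNT, BayTubes and rCNT. For Deup1 the samples of neighbouring groups overlapped, except that fullerene lay above Ctrl and tCNT above SES, while for Ccno tCNT lay above SES, BayTubes lay above tCNT and the other neighbours overlapped. The group means of Deup1 were 9.45 ± 0.13 (SD, n = 3) for Ctrl, 10.16 ± 0.41 (n = 4) for fullerene, 10.24 ± 0.30 (n = 4) for Graphite, 10.48 ± 0.16 (n = 3) for SES, 11.00 ± 0.21 (n = 3) for tCNT, 11.25 ± 0.17 (n = 4) for BayTubes and 11.26 ± 0.25 (n = 3) for rCNT. For Foxj1 the order ran from Graphite (9.63 ± 0.22) through SES (9.65 ± 0.46), fullerene (9.90 ± 0.28), BayTubes (10.07 ± 0.25), Ctrl (10.28 ± 0.24) and tCNT (10.84 ± 0.18) to rCNT (11.32 ± 0.05). BayTubes thus stood beside rCNT for Deup1 and below Ctrl for Foxj1 by mean, although its samples overlapped Ctrl.

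**Figure D4:**
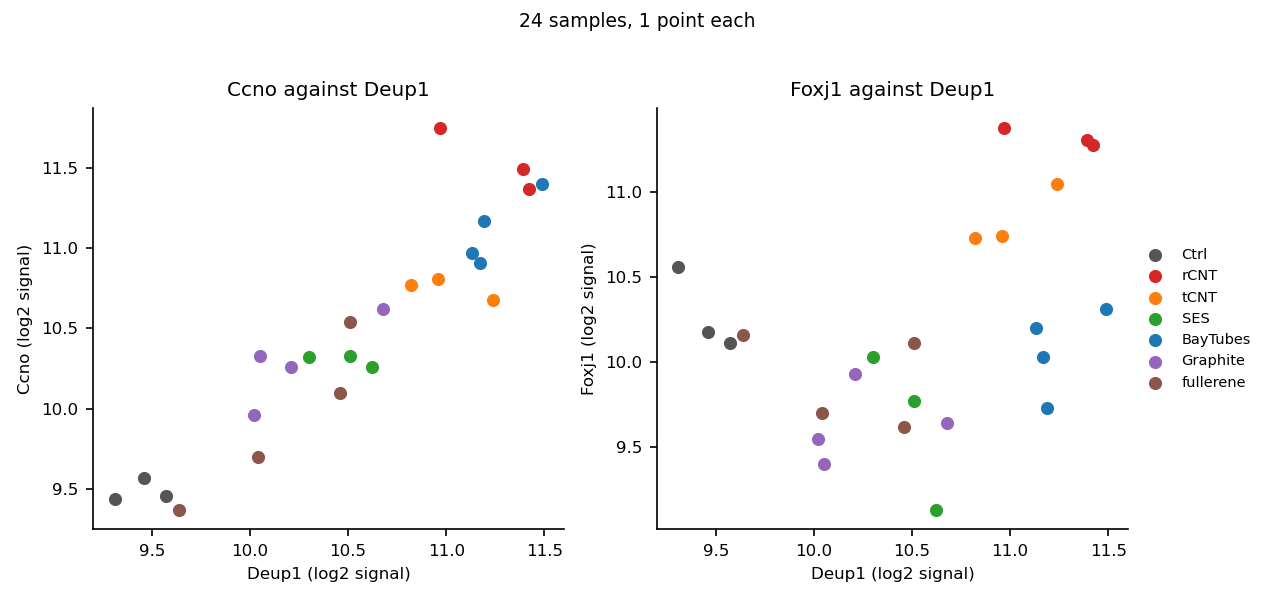
Log2 signal of Ccno (left) and of Foxj1 (right) on the vertical axis against that of Deup1 on the horizontal axis, 1 point for each of the 24 samples, coloured by group. Ccno rises along with Deup1, whereas the 4 BayTubes samples combine high Deup1 (11.13 to 11.49) with Foxj1 of 9.73 to 10.31.

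Across all 24 samples, which share arrays in pairs and include the group differences above, the Pearson correlation between log2 signals was 0.82 to 0.97 for the 6 pairs among Deup1, Ccno, Foxn4 and Myb. Foxj1 correlated with these 4 at 0.32 to 0.51, and Mcidas with the other 9 genes at -0.60 to 0.10. The genes outside the list most like Deup1 were Ybx2 (0.954), Ctsk (0.947) and Klhdc9 (0.917). For Ccno they were Ybx2 (0.945), the mitotic activator Cdc20 (0.945) and Ctsk (0.934), and for Foxn4 they were Ybx2 (0.956), Ctsk (0.943) and Lhx3 (0.941). Foxj1 was nearest to Samd14 (0.905), Atic (0.893) and F7 (0.889), Myb to Cibar2 (0.895), Oscp1 (0.887) and Lrrc23 (0.88), and Hes6 to Icam4 (0.859), Dnaic2 (0.841) and Plxnb3 (0.806). Stil was nearest to Ska3 (0.955), Cks1brt (0.93) and Gins2 (0.927), and Plk4 to Ercc6l (0.955), Ffar4 (0.92) and Dbf4 (0.912). Mcidas was nearest to Snap25 (0.963), Idua (0.947) and Hexim2 (0.931), and Gmnc to Atp5g1 (0.856), Mfsd13a (0.843) and Knstrn (0.805). These values describe 24 samples and carry no test.

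The further lists are read against the share of all genes that passed, with rCNT 12.4% higher and 9.41% lower, with BayTubes 2.16% higher and with tCNT 0.684% higher. Of 13 other regulators of multiciliated cell fate tested, 4 rose and 1 fell with rCNT (median 0.24). Ccna1, which encodes cyclin A1, rose by 2.41 ± 0.31 with rCNT (adjusted p = 1.85e-05), by 1.77 ± 0.25 with BayTubes (adjusted p = 0.000517) and by 1.77 ± 0.31 with tCNT (adjusted p = 0.0136). Trp73, a p53-family factor that acts on Foxj1 and Myb, rose by 0.76 ± 0.14 with rCNT and 0.43 ± 0.11 with BayTubes. Tfdp1, the DP1 partner of E2F factors, and Gmnn, which encodes geminin, rose with rCNT alone among the comparisons with Ctrl, by 0.91 and 0.59, and Ank3 fell by 0.65. E2f4, E2f5, Rfx2 and Rfx3 did not pass with any material.

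The Notch pathway, whose activity holds cells back from the multiciliated fate, had 18 tested genes. With rCNT 3 of them fell, where 9.41% of all genes did, and none rose, where 12.4% did (median -0.21). Both directions together, the share called was no larger than the 21.8% of all genes that passed. Hey1, a Notch target, fell by 0.71 ± 0.18 (adjusted p = 0.00636), and the receptors Notch3 and Notch4 fell by 0.47 and 0.45. None passed with any other material. The endothelial marker Pecam1 fell with rCNT by 1.01 ± 0.26 (adjusted p = 0.0083) and Cldn5, another, was at -0.41 (adjusted p = 0.214), and their part in the Notch values was not tested. Hes1, the target that Hes6 opposes, was at 0.15 with rCNT (adjusted p = 0.686).

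Among 26 genes of centriole duplication and amplification, 8 rose and none fell with rCNT (median 0.21). Nek2, a kinase of centrosome separation, rose by 1.65 ± 0.22 with rCNT, 1.09 ± 0.18 with BayTubes and 1.11 ± 0.22 with tCNT, and was the only one of the 26 to pass with BayTubes or tCNT. Haus8, Poc1a and Cetn4 rose with rCNT by 0.66, 0.93 and 0.80. Cep63, the paralogue of Deup1, and Cep152, the partner of both, did not pass with any material. Of 17 genes of basal body docking and ciliary transport, 3 rose with rCNT, a share close to that of all genes. Cfap53 rose by 0.72 with rCNT, 0.62 with tCNT, 0.55 with Graphite and 0.43 with BayTubes.

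Of 31 genes of the motile cilium itself, 14 rose and 1 fell with rCNT (median 0.26), 8 rose with BayTubes (median 0.32) and 3 with tCNT (median 0.42), and none passed with SES, Graphite or fullerene. Zmynd10, needed to assemble dynein arms, rose by 1.05 ± 0.16 with rCNT (adjusted p = 9.03e-05) and 0.77 ± 0.13 with BayTubes (adjusted p = 0.00192). Cfap52 rose by 0.82 with rCNT, 0.68 with tCNT and 0.56 with BayTubes, and Tekt1, a tektin of the ciliary microtubules, by 0.76, 0.66 and 0.57. The gene that fell with rCNT was Tppp3, a tubulin-binding protein, by 0.62 ± 0.17 (adjusted p = 0.0103). With BayTubes, where 8 of the 31 rose, Foxj1 was at -0.20, and no gene of the list was called in the direct comparison of rCNT with BayTubes.

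Of 25 genes of cell division tested, 21 rose with rCNT (median 2.10), 19 with BayTubes (median 1.07), 6 with tCNT (median 1.11) and 3 with Graphite (median 0.70), and none passed with SES or fullerene. Cdk1, the mitotic kinase, rose by 2.60 with rCNT, 1.54 with BayTubes and 1.45 with tCNT. The mean level of the 25 genes ran from 7.99 to 8.22 in Ctrl, 9.69 to 10.05 with rCNT, 8.85 to 9.16 with tCNT, 8.71 to 9.44 with BayTubes, 8.43 to 8.75 with SES, 8.47 to 8.99 with Graphite and 8.35 to 9.21 with fullerene. Their order across the groups thus resembled that of Deup1 and Ccno. Of the 25, 17 were called higher with rCNT than with tCNT (8.84% of all genes passed) and 16 higher than with BayTubes (13.1%). Deup1, Ccno, Foxn4 and Myb were not called in either comparison, although Ccno was 0.62 ± 0.20 higher with rCNT than with tCNT (limma adjusted p = 0.0635). Plk4, Stil, Nek2 and Myb also act in dividing cells. The part of dividing cells in their signals, and in those of Ccno, Gmnn, Tfdp1 and the other genes named, was not tested.

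**Figure D5:**
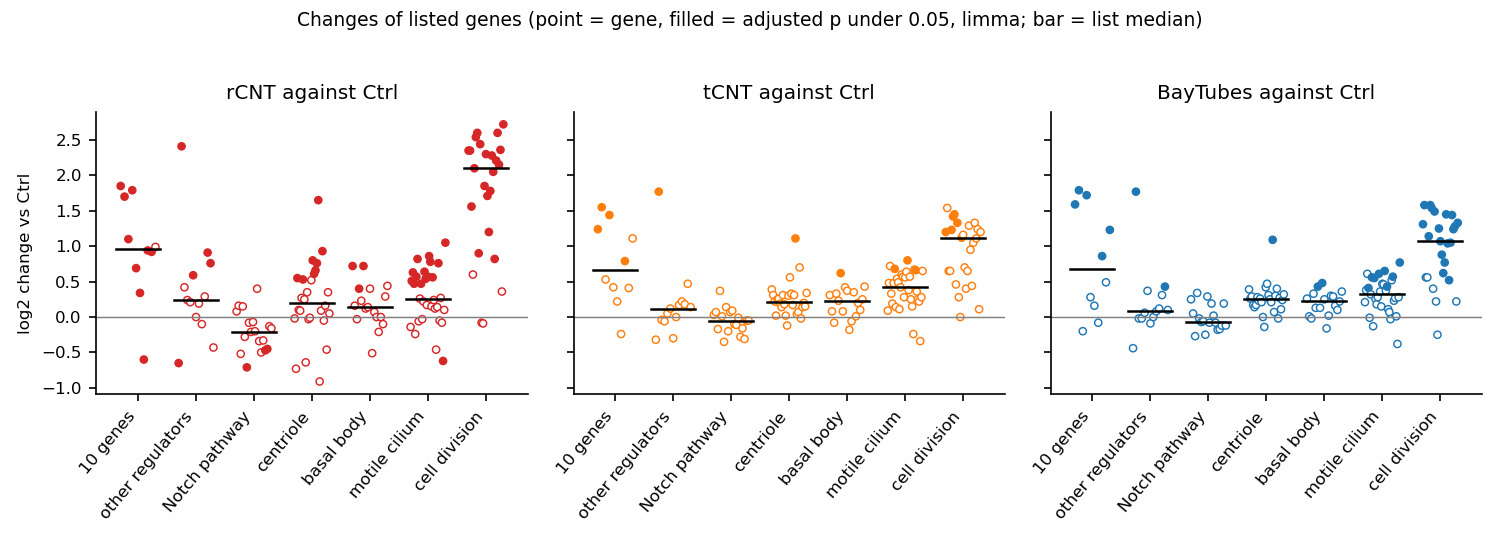
Log2 change against Ctrl (vertical axis) of the 10 genes and of 6 other gene lists (horizontal axis) with rCNT, tCNT and BayTubes. Points are genes, filled where the limma adjusted p was under 0.05, and bars are list medians, which for cell division are 2.10, 1.11 and 1.07 and for the 10 genes 0.97, 0.66 and 0.68.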

How the data were processed

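Lung RNA was measured on 12 two-colour Agilent arrays with 62976 spots, each dye holding its own sample. The authors deposited log2 signals, already normalized: the sorted values of any 2 samples differed by at most 0.0856. Agilent Feature Extraction and limma are named per the submitters' processing notes, and versions, settings and genome build are not given in the sources used here.

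Spots were named by the platform annotation (31465 had a gene symbol), with 29036 updated through accessions, 2075 matched by symbol and 349 by synonym in RefSeq. A gene was its spot with the highest mean over 24 samples, and the filter kept the 16519 of 20738 genes that exceeded their sample's 40th percentile of spots in 3 samples or more. The test was fitted with limma 3.58.1 (R 4.3.3, statmod 1.5.0) on all 24 samples, with group and dye as fixed terms and array as a random block (correlation 0.399), 2-sided, Benjamini-Hochberg adjusted within each comparison over all 16519 genes at 0.05. The script was tested on simulated data.

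The 10 genes, the other lists and the tests were chosen with earlier results of these data known. All 10 genes were named, up to 4 genes of each other list and comparison by smallest p, and for each of the 10 the 3 most correlated genes; a few others were named after their values were seen. Alternatives changed the array, dye and slide terms, filter, normalization, spot, variance prior, threshold and samples. Motifs were searched on both strands of RefSeq windows reaching 250 bases before and 50 after the start (GRCm38.p6), where GTTGCC is part of the longer RFX form.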

Additional observations from a re-analysis of the deposited data

Results flagged for a closer look

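In BayTubes, the Deup1 signal of sample 17 was 11.49, while the other 3 samples lay between 11.13 and 11.19. In fullerene, the Mcidas signal of sample 22 was 14.62, while the other 3 lay between 14.07 and 14.15. Each was the highest of its 4 samples by a gap larger than Dixon's 95% value allows, and of the 30 groups of 4 samples examined, chance gives such a gap in about 1 in 20.

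Foxj1 differed from Ctrl in opposite directions with rCNT and with 4 other materials, and the direct difference passed in each: rCNT was higher by 1.70 than SES, 1.30 than BayTubes, 1.72 than Graphite and 1.38 than fullerene. Gmnc was above Ctrl with rCNT and slightly below it with fullerene, and the direct difference of 0.75 passed. Of these materials, only rCNT differed from Ctrl past the threshold in either gene.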

How the results depend on the processing

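Pairing by replicate number was not possible because the sample numbers run from 1 to 24 over all groups, so the groups share no replicate numbers. Pairs of samples share an array, which the fit took as a random block and an alternative took as a fixed term. The 43 member values called in the comparisons were refitted under every alternative that gave a value: the call stood in 698 refits, was lost in 178, and the sign changed in 0. Of 67 values not called, refitted 1353 times, 71 refits gave the other sign and 50 gained a call. The other normalizations shifted the median of all genes by at most 0.033 and 0.036.

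With the array as a fixed term, the number of the 10 genes called moved from 9 to 5 for rCNT, 4 to 0 for tCNT and 1 to 0 for Graphite against Ctrl, and for rCNT from 7 to 1 against SES, 2 to 1 against BayTubes, 8 to 5 against Graphite and 7 to 3 against fullerene. Within slide 1 it was 0 for tCNT, 0 for BayTubes and 0 for Graphite, 5 for rCNT against tCNT and 1 in the test over all groups, and within slide 2 it was 5 for rCNT and 2 for Graphite against Ctrl, and for rCNT 3 against SES and 5 against Graphite. With only the groups compared it was 0 for Graphite, and for rCNT 3 against SES, 1 against BayTubes, 5 against Graphite and 4 against fullerene.

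The Graphite count of 1 was also 0 with no array term, no filter, cyclic loess or median scaling. It was 0 too without the array of rCNT 4 and Graphite 16, and 2 with no dye term or a robust prior. With the stricter filter it was 4, all higher, and with slide as a term it was 4, of which 3 were higher and 1 lower. For rCNT against tCNT it was 1 with no array term or slide as a term, and against Graphite 5 with no array term. Against BayTubes it was 1 with no dye term, cyclic loess or a 1.5-fold minimum. Leaving out 1 sample gave 6 to 8 for rCNT, 0 to 4 for tCNT, 0 for SES, 4 for BayTubes, 0 to 4 for Graphite and 0 to 1 for fullerene against Ctrl, and for rCNT 0 against tCNT, 3 to 7 against SES, 1 to 2 against BayTubes, 6 to 8 against Graphite and 5 to 7 against fullerene, and 5 to 6 over all groups. Except where a setting holds fewer samples or tests another number of genes, the cause was not tested. Fits within a slide, with pairs of groups or without 1 sample took their array correlation from all 24 samples. A lone sample of a group was assumed to vary like the others.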

Other observations

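Lists of other airway cells give the following counts. Of all genes, 12.4% rose and 9.41% fell with rCNT, 0.684% rose with tCNT and 2.16% rose with BayTubes. Of 10 club and goblet cell genes, 5 rose and 1 fell with rCNT: the goblet genes Agr2 (4.70 ± 0.36), Muc5ac (3.43 ± 0.41) and Spdef (1.14 ± 0.15) rose, and Cyp2f2, a club cell enzyme, fell by 1.27 ± 0.18. With tCNT 3 rose and with BayTubes Agr2 alone (1.94 ± 0.29). Of 6 basal cell genes, Ngfr rose by 0.84 and Trp63 fell by 0.72 with rCNT, and none passed with any other material. Of 7 neuroendocrine genes, Calca rose by 0.81 with rCNT, and none passed with any other material. The part of these cells in the signals of the 10 genes was not tested.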
